A study of Mus musculus with 12 samples.

Results

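Of the 12 whole-testis arrays of a study of the cycle of the seminiferous epithelium, 4 cover the step in which late spermatocytes divide. They are the 2 arrays labelled Stages IX - XI (called IX-XI here) and the 2 labelled Stages XII - I (XII-I), and both groups were chosen by those labels alone. Each array is a Mouse Gene 1.0 ST array read with RNA from the whole testis of adult male mice of a mixed 129 and C57BL/6 background. All 6 stage groups, these 2 included, had been treated alike to bring the tubules into step. As pups they were given WIN 18,446, an inhibitor of retinoic acid synthesis, daily for 7 days (100 ug per g, 2 to 8 days postpartum) and then a single dose of retinoic acid (200 ug, 9 days postpartum). Testes were taken after a recovery of 43 to 49 days. No untreated group was analysed here, and both groups of the step span more than 1 stage. Whether the 2 samples of a group are separate animals is not stated in the labels. The p-values therefore measure no more than the spread between these samples, and that spread may be technical. Levels are log2 of the deposited intensity, and 19946 genes were measured, each by its brightest probe set. A gene is said to have risen or fallen when its difference, XII-I minus IX-XI, had an adjusted p under 0.05 in limma, with Benjamini-Hochberg adjustment over all 19946 genes.

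In the textbook description of the mouse cycle, spermatocytes pass from pachytene to diplotene through stages IX to XI, carry out both meiotic divisions in stage XII, and leave new round spermatids in stage I. Entry into division depends on cyclin-dependent kinases and Polo and Aurora kinases, capture of chromosomes by the spindle on the kinetochore, and separation on the anaphase-promoting complex, which frees separase to cut cohesin. The same tubules also hold spermatogonia, younger spermatocytes that have just entered meiosis, and spermatids that begin to elongate, so a whole-testis array reads all of these together. In such bulk samples, fewer cells of a type and less RNA per cell cannot be told apart.

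The 4 arrays did not stand equally far apart. Over all genes, the IX-XI samples correlated at 0.995 with each other and the XII-I samples at 0.988 (Pearson, across genes, which are not independent replicates). XII-I sample 2 was closer to II-IV sample 2, at 0.998, than to its partner. XII-I sample 1 lay nearer to IX-XI sample 1, at 0.980, than XII-I sample 2 did, at 0.970. It correlated at 0.987 with VIII-IX sample 2 and 0.986 with II-IV sample 2, almost as highly as with its partner. IX-XI sample 1 correlated at 0.9954 and 0.9952 with VIII-IX samples 1 and 2, slightly above the 0.9949 with its own partner. Arrays of both groups were thus as close to arrays of neighbouring groups as to their partners, except IX-XI sample 2, which was closest to its partner. The calls rested most on IX-XI sample 2. With all 12 arrays limma called 2386 genes, and without that array it called 11, although 3369 genes then had an unadjusted p under 0.05 and 2356 of the 2386 were among them. Leaving out IX-XI sample 1 gave 395 calls, XII-I sample 2 gave 769 and XII-I sample 1 gave 1616. With IX-XI sample 2 and VIII-IX sample 2 both left out limma called 0 genes, and 3291 had an unadjusted p under 0.05. In every such fit a group reduced to 1 array was assumed to vary like the other groups. The sizes of the differences moved far less than the calls. Over the 2386 genes the median size was 0.662 log2 with all arrays and 0.625 without IX-XI sample 2. It was 0.642 to 0.695 log2 without any other single array of the step. None of the 2386 turned its direction, which groups that do not overlap fix in advance. Of the genes that mark testicular germ cells, the protamine Prm2 read 13.66 to 13.71 and the lactate dehydrogenase Ldhc 13.38 to 13.49 on the 4 arrays. Levels cannot be compared between probe sets, so the labelled tissue was not tested against other tissues.

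More genes passed at this step than at any other step between neighbouring groups. From IX-XI to XII-I, 2386 of 19946 genes passed (12%), of which 1462 rose (7.33% of all genes) and 924 fell (4.63%). Their groups did not overlap in any of the 2386, and the same held for 58.0% of all genes. The median fall was larger than the median rise. The genes that rose did so by a median of 0.615 log2, and 218 of them by at least 2-fold and 16 by at least 4-fold. The genes that fell differed by a median of -0.755 log2, with 303 lower by at least 2-fold and 65 by at least 4-fold. The median over all genes was -0.027 log2. Of the other 5 steps of the cycle, limma called 784 genes (3.93%) from VII to VIII-IX and 0 at each of the other four. Among the latter, 1980 genes had an unadjusted p under 0.05 from XII-I to II-IV, 1322 from II-IV to IV-VI, 1183 from IV-VI to VII and 925 from VIII-IX to IX-XI, against 5544 here. The step from VII to VIII-IX was closer in size than its calls show, with 5048 genes at an unadjusted p under 0.05 in limma. Its median absolute difference was 0.145 log2, against 0.164 here. At any p, 249 genes were at least 2-fold higher and 316 lower there, against 239 and 405 here. These counts are all from fits to the 12 arrays. Calls from VII to VIII-IX were not counted with single arrays left out, as those of this step were. Whether the order of the 2 steps depends on single arrays was therefore not tested. Rising genes made up 61.3% of the calls with all arrays, 50.4% when XII-I sample 1 was left out and 75.9% when IX-XI sample 1 was.

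**Figure D1:**
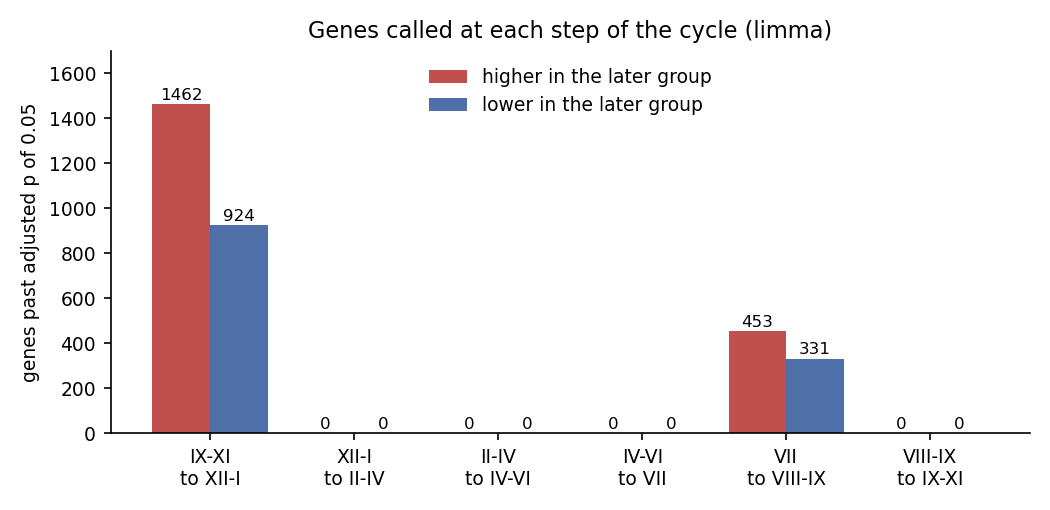
Number of genes with an adjusted p under 0.05 in limma at each of the 6 steps between neighbouring stage groups, as bars, red for genes higher and blue for genes lower in the later group, from fits to all 12 arrays. The step from IX-XI to XII-I has 1462 and 924, the step from VII to VIII-IX 453 and 331, and the other four have 0.

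A larger share of division genes than of all genes rose from IX-XI to XII-I. Over 5 lists of division genes, with 172 measured genes in all, 50 rose (29.1%, against 7.33% of all genes), 7 fell (4.07%, against 4.63%) and 115 did not pass. Their median difference was 0.220 log2, and 121 of the 172 lay above 0. Of the 50 that rose, 42 had their highest group mean in XII-I and 25 their lowest in IX-XI. Of all 1462 genes that rose, 1103 (75.4%) were highest in XII-I and 648 (44.3%) lowest in IX-XI. The test itself favours such genes. XII-I sample 1 read the higher of the pair for 31 of the 50 and for 54.0% of all genes that rose. The number called higher was 25 when XII-I sample 1 was left out, 32 when its partner was and 16 when IX-XI sample 1 was. When IX-XI sample 2 was left out limma called 0 of them higher, with 52 members higher at an unadjusted p under 0.05 and a median of 0.195 log2. The median was 0.121 log2 when XII-I sample 1 was left out and 0.323 when its partner was.

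**Figure D2:**
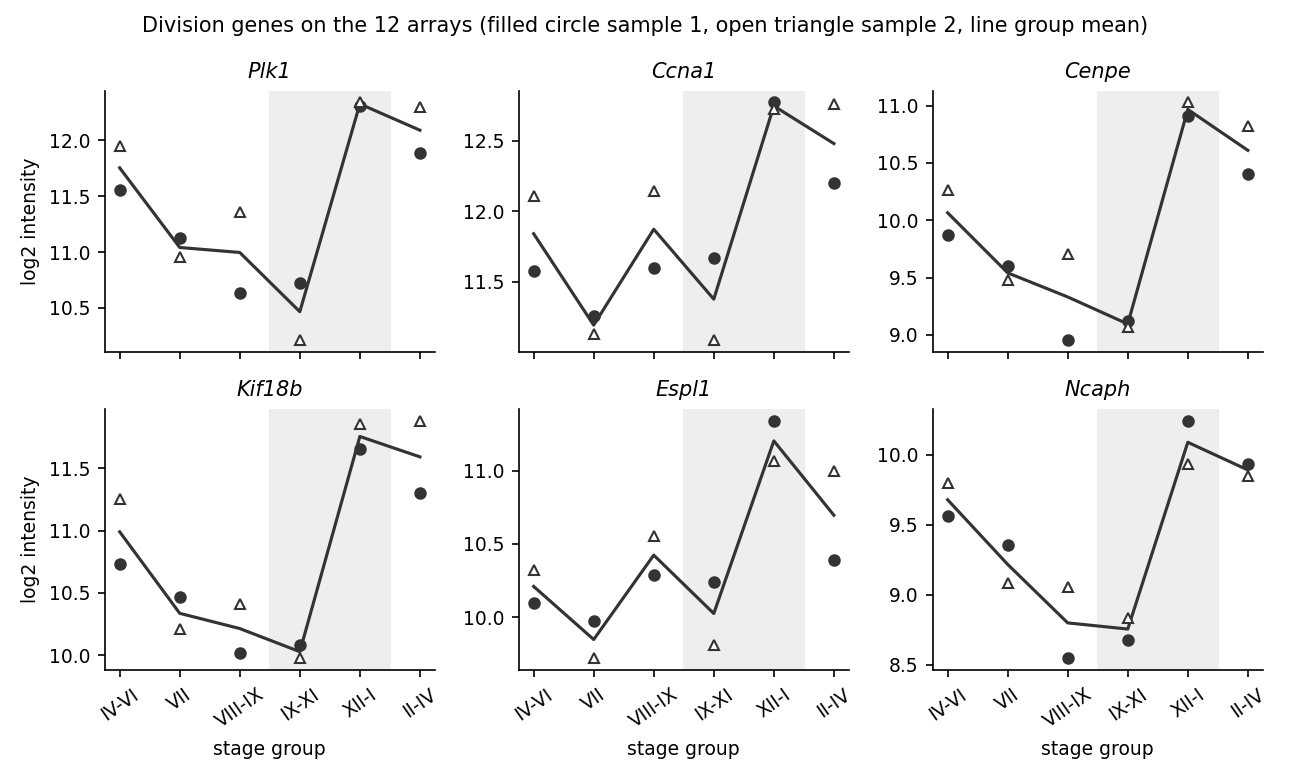
log2 intensity of 6 division genes on all 12 arrays, with stage groups in the order of the cycle on the horizontal axis, filled circles for sample 1, open triangles for sample 2, a line through the group means and the step shaded. Each gene is higher on both XII-I arrays than on both IX-XI arrays, and Plk1 goes from 10.72 and 10.21 to 12.31 and 12.34.

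The promoters of these genes were read for the cell cycle genes homology region (CHR), TTTGAA on either strand, the element through which the MuvB complexes hold division genes silent or active over the cell cycle. It was present in 21 of the 41 division genes that rose and have a window in the RefSeq promoter table (51.2%), and in 41 of the 102 other division genes (40.2%). Over all 15619 genes with a window it was present in 15.2%, in 15.2% of all genes that rose and in 14.2% of those that fell. The CCAAT box (CCAAT), which often lies upstream of a CHR, was present in 68.3% of the division genes that rose, 56.9% of the others and 38.2% of all genes. A MYB core (GCAGTT) was present in 19.5% and 19.6% of the same sets against 12.9% of all genes, an RFX site (GTTGCC) in 19.5% and 15.7% against 12.3%, and a cyclic AMP response element (TGACGTCA) in 7.32% and 5.88% against 2.49%. None of these motifs contains another. The windows below are those of the 6 division genes with the largest rise whose window holds a CHR. They are shown, 5′ to 3′ on the gene's strand from 250 bases before to 50 after the annotated start (RefSeq, GRCm38.p6), so that the place of the element can be seen beside the size of each rise; capitals mark TTTGAA or its reverse complement. Plk1 is read from chr7:122159185-122159484 (+), Kif18b from chr11:102925075-102925374 (-), Kif23 from chr9:61946750-61947049 (-), Kif22 from chr7:127042371-127042670 (-), Ckap2l from chr2:129297163-129297462 (-) and Espl1 from chr15:102296043-102296342 (+).
Plk1: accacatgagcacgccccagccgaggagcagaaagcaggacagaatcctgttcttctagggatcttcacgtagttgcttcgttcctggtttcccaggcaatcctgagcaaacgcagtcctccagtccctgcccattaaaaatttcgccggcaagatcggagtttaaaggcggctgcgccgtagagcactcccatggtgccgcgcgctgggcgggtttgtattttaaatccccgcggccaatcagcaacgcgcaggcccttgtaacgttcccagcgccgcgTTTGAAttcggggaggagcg
Kif18b: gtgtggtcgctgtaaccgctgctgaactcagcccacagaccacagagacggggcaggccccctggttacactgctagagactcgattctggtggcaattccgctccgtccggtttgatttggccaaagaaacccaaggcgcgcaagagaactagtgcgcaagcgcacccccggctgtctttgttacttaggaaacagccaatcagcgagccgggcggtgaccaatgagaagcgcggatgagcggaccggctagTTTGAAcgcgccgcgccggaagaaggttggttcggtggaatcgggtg
Kif23: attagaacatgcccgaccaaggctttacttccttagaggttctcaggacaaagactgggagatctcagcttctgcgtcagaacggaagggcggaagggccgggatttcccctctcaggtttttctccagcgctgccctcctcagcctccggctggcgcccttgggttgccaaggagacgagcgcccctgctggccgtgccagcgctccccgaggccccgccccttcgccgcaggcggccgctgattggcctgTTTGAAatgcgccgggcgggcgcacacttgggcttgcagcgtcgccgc
Kif22: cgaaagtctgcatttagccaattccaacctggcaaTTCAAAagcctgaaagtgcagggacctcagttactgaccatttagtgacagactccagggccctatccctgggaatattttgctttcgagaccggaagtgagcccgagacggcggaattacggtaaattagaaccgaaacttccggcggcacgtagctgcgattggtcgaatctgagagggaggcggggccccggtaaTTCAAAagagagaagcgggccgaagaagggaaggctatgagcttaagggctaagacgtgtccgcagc
Ckap2l: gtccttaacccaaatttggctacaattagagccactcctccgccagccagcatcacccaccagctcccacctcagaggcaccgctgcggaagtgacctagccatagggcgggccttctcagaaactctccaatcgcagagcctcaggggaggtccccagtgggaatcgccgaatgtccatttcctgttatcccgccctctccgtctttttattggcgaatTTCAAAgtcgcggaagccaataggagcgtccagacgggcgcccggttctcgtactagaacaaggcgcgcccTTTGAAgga
Espl1: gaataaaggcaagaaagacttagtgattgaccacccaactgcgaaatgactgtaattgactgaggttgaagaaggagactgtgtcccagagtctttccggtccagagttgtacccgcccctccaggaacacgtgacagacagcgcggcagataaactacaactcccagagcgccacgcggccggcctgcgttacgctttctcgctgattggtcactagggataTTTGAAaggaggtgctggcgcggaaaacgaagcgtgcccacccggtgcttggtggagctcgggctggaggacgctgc
Counted from 0 at the first transcribed base, the element begins at 30 in Plk1, 3 in Kif18b, 2 in Kif23 and -27 in Espl1. Kif22 holds it at -215 and -17, and Ckap2l at -30 and 41. Of the 8 copies, 7 therefore lie within 50 bases of the annotated start. The window ends 50 bases after the start, so copies downstream of it could not lie further away. Their places were not compared with those in other genes. Cenpe, Ccna1 and Ncaph, which rose by 1.87, 1.37 and 1.34 log2, have a window without these letters, and Incenp has no window in the table.

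Some kinases and cyclins of entry into division rose. Of those on the list, Plk1 alone was among the 15 largest rises described below. Plk1 (probe set 10557156), the Polo kinase that drives entry into division and spindle assembly, read 10.72 and 10.21 in IX-XI and 12.31 and 12.34 in XII-I. Both XII-I samples lay over 1 log2 above both IX-XI samples, and the difference was 1.86 ± 0.26 log2 (SE, n = 2 against 2; limma, adjusted p = 0.00801). Ccna1 (10498192), the A-type cyclin of meiotic male germ cells, read 11.67 and 11.08 in IX-XI and 12.77 and 12.72 in XII-I, a rise of 1.37 ± 0.27 log2 (adjusted p = 0.0167). The mitotic cyclin partner Cdk1 read 11.14 and 10.75 against 12.02 and 11.49, and rose by 0.80 log2. Its samples did not overlap, but XII-I sample 2 lay only a little above IX-XI sample 1. Ccnf, cyclin F, which directs a ubiquitin ligase, went from 8.59 and 8.39 to 10.45 and 10.46, a rise of 1.96 ± 0.31 log2 (adjusted p = 0.0093). It is outside the list of cyclins and kinases and was named for its size.

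Of the 32 measured members of the cyclin and kinase list, 10 rose (31.2%, against 7.33% of all genes), 3 fell (9.38%, against 4.63%) and 19 did not pass, with a median of 0.348 log2. The other members that rose were Aurka, the Aurora kinase of the spindle poles (1.11 log2), its cofactor Bora (0.88), the activating phosphatase Cdc25a (0.96), the transcription factor Foxm1 (0.90), the cyclins Ccnb2 (0.50) and Ccne1 (0.49), and Wee1, the kinase that restrains Cdk1 (0.48). Mastl, the Greatwall kinase that restrains the phosphatase opposing Cdk1, fell. It read 9.95 and 9.90 in IX-XI and 8.66 and 7.66 in XII-I, a difference of -1.76 ± 0.38 log2 (adjusted p = 0.0227). XII-I sample 2 was well below sample 1, and both lay below IX-XI. Ccne2, a cyclin of DNA synthesis, went from 10.22 and 10.15 to 8.97 and 8.61 and fell by 1.39 log2, opposite to its paralog Ccne1. Ccni, an atypical cyclin, fell by 0.40 log2. Values that did not pass included Aurkb at 1.11 log2 and Aurkc, the Aurora kinase of germ cells, at 0.62. The list had 9 calls when XII-I sample 1 was left out, 5 when its partner was and 4 when IX-XI sample 1 was. In the fit without IX-XI sample 2 it had 0 calls by limma, while 16 members had an unadjusted p under 0.05.

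Kinetochore genes rose as a minority of their list. Cenpe (10496204), the kinesin motor that carries chromosomes to the spindle equator, read 9.12 and 9.07 in IX-XI and 10.91 and 11.03 in XII-I. The samples of each group lay close together and far from the other group, with a rise of 1.87 ± 0.24 log2 (SE, n = 2 against 2; adjusted p = 0.00769 in limma). Spc25, of the Ndc80 complex that binds microtubules, went from 8.55 and 8.20 to 9.95 and 9.12, and Nuf2 of the same complex from 10.43 and 10.33 to 11.01 and 10.93. Their partner Spc24 moved the other way, from 8.69 and 8.71 to 8.28 and 8.26. Thus within that complex Spc25 rose by 1.16 log2, Nuf2 by 0.59, Spc24 fell by 0.43, and Ndc80 itself did not pass at 0.68. The checkpoint kinase Ttk rose by 0.76 log2, Cenpf by 0.96, the centromere proteins Cenpl by 1.05, Cenpk by 0.71 and Cenpp by 0.71, and Ska3 of the Ska complex by 0.74. Nsl1, of the Mis12 complex, fell by 0.45 log2. In all, 9 of the 44 kinetochore genes rose (20.5%, against 7.33% of all genes), 2 fell (4.55%, against 4.63%) and 33 did not pass, and the median was 0.158 log2, or 0.044 without XII-I sample 1. The checkpoint proteins Bub1 (0.34 log2), Bub1b (0.33) and Mad2l1 (-0.25) did not pass, nor did Meikin (-0.19), a meiosis-specific kinetochore protein. Calls numbered 5 when XII-I sample 1 was left out, 7 when its partner was and 3 when IX-XI sample 1 was. None was made without IX-XI sample 2 (0 in limma, 12 at an unadjusted p under 0.05).

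Of the 42 measured members of the spindle and cytokinesis list, 16 rose (38.1%, against 7.33% of all genes) and 0 fell, with a median of 0.406 log2. Kif18b (10391811), a kinesin that limits microtubule growth at plus ends, read 10.08 and 9.97 in IX-XI and 11.66 and 11.85 in XII-I. Incenp, the scaffold of the Aurora B complex, read 9.13 and 8.80 against 10.60 and 10.40. Kif23, a motor of the central spindle, read 9.62 and 9.47 against 10.91 and 10.93. In all 3 genes the groups lay more than 1 log2 apart. Kif18b rose by 1.73 ± 0.23 log2, Incenp by 1.53 ± 0.22 and Kif23 by 1.38 ± 0.19 (SE, n = 2 against 2; limma, adjusted p = 0.00796, 0.00854 and 0.00796). The chromokinesin Kif22 went from 8.70 and 8.65 to 9.88 and 9.95, a rise of 1.24 log2, and the spindle protein gene Ckap2l rose by 1.22. The microtubule-associated proteins Nusap1 (1.14 log2), Hmmr (0.90) and Tpx2 (0.75) and the chromosome-aligning kinesin Kif18a (0.91) also rose. Smaller rises were those of Dlgap5, the citron kinase Cit, Kif20a, Ect2, Kif9, Kif4 and Spag5, from 0.51 to 0.73 log2. Of the members that did not pass, the lowest was Kif15, at -0.94 log2. The list had 12 calls when XII-I sample 1 was left out, 14 when its partner was and 6 when IX-XI sample 1 was. The fit lacking IX-XI sample 2 called 0 in limma, and 17 members had an unadjusted p under 0.05. The median was 0.188 log2 when XII-I sample 1 was left out and 0.551 when its partner was. With all arrays it was the highest of the 5 division lists, but not without XII-I sample 1, when the cyclin and kinase list stood at 0.376, nor without IX-XI sample 2, when the medians were 0.29 for the spindle list and 0.30 for the cyclin and kinase list.

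Of 24 measured genes of chromosome separation, 8 rose (33.3%, against 7.33% of all genes) and 0 fell, with a median of 0.165 log2. Espl1 (10427166), separase, read 10.24 and 9.81 in IX-XI and 11.34 and 11.06 in XII-I, a rise of 1.18 ± 0.22 log2 (SE, n = 2 against 2; limma, adjusted p = 0.0147). Both XII-I samples lay over 0.8 log2 above both IX-XI samples. The ubiquitin-conjugating enzymes Ube2c and Ube2s rose by 0.70 and 0.34 log2, the subunits Cdc26, Cdc23, Cdc27 and Anapc2 by 0.60, 0.43, 0.43 and 0.42, and the activator Fzr1 by 0.55. The activator Cdc20, at 0.46 log2, the separase inhibitor Pttg1, at 0.70, and Fbxo5, an inhibitor of the complex, at -0.66, did not pass. There were 4 calls when XII-I sample 1 was left out, 3 when its partner was and 1 when IX-XI sample 1 was. Leaving out IX-XI sample 2 left 0 in limma and 9 genes with an unadjusted p under 0.05.

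Condensin and cohesin genes moved in both directions. Ncaph (10487340), the kleisin subunit of condensin I, read 8.68 and 8.83 in IX-XI and 10.24 and 9.93 in XII-I, and rose by 1.34 ± 0.18 log2 (SE, n = 2 against 2; limma, adjusted p = 0.00796). Ncapd2 of the same complex rose by 0.57 log2, the topoisomerases Top2a and Top2b by 0.54 and 0.69, Wapl, which releases cohesin, by 0.51, the cohesin loader Nipbl by 0.40, and Smc5 by 0.46. The cohesin kleisin of dividing cells, Rad21, fell, from 11.51 and 11.66 to 10.60 and 10.56. Its difference was -1.001 ± 0.187 log2 (adjusted p = 0.0143). Esco2, which acetylates cohesin during DNA synthesis, went from 9.67 and 9.45 to 8.53 and 8.51 and fell by 1.04 log2. Both genes were lower on both XII-I arrays than on both IX-XI arrays. The meiotic kleisins did not pass: Rec8 read 9.15 and 10.04 against 9.06 and 10.16, and Rad21l 8.07 and 7.66 against 7.39 and 6.93. Rec8 differed more between the samples of a group than between the groups. Among the 30 measured genes 7 rose (23.3%, against 7.33% of all genes) and 2 fell (6.67%, against 4.63%), with a median of 0.167 log2. There were 5, 3 and 2 calls without XII-I sample 1, XII-I sample 2 and IX-XI sample 1. With IX-XI sample 2 left out limma made 0 calls, and 10 genes had an unadjusted p under 0.05.

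Meiotic prophase comes before these divisions. Of 15 measured genes of the synaptonemal complex and chromosome axis, 0 rose and 2 fell (13.3%, against 4.63% of all genes), with a median of -0.061 log2. Terb2, which ties telomeres to the nuclear envelope, went from 9.09 and 9.06 to 8.08 and 7.90, and fell by 1.08 log2 (limma, adjusted p = 0.0343). Sun1, the envelope protein it is linked to, fell by 0.57 log2. Sycp3 and Sycp1, of the lateral and central parts of the complex, did not pass at 0.22 and 0.11 log2. Of 30 measured recombination genes, 2 rose (6.67%, against 7.33% of all genes) and 4 fell (13.3%, against 4.63%), with a median of -0.153 log2. Those that fell act at or near the formation of DNA breaks or crossovers: Prdm9, which marks the sites of breaks, read 8.41 and 8.19 against 7.74 and 7.18 (-0.84 log2), and Rec114 and Mei4, which help to form breaks, fell by 0.66 and 0.48, as did Shoc1, a crossover factor, by 0.42. Meiob, a single-strand DNA binding protein of recombination, rose from 7.88 and 7.33 to 8.74 and 9.02, a rise of 1.28 ± 0.27 log2 (SE, n = 2 against 2; adjusted p = 0.0216). Rnf212b, a crossover factor, rose by 0.85 log2. Both had their highest mean in II-IV. The recombinase Dmc1 (0.05 log2) and Spo11, which cuts the DNA (-0.12), did not pass. Leaving out any of the 4 arrays brought the 2 axis calls to 0 in limma, with 4 or 5 genes at an unadjusted p under 0.05. For recombination the 6 calls turned into 7 on leaving out XII-I sample 1, 1 on leaving out XII-I sample 2, and 0 on leaving out IX-XI sample 1 or 2, where 11 and 10 genes had an unadjusted p under 0.05.

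Retinoic acid drives the entry of germ cells into meiosis and was the agent of the synchronization, and some of its genes differed at the step. Rdh10 (10344952), which oxidizes retinol, read 11.45 and 11.31 in IX-XI and 10.13 and 9.01 in XII-I, and fell by 1.81 ± 0.31 log2 (SE, n = 2 against 2; limma, adjusted p = 0.0118). Stra6, the receptor for retinol on its carrier, went from 9.63 and 9.82 to 8.46 and 8.38, and Rxra, a retinoid X receptor, from 10.28 and 10.38 to 9.26 and 8.76. Stra8, the germ cell target of retinoic acid, went from 8.47 and 8.34 to 7.53 and 7.19. All 4 genes were lower on both XII-I arrays, by 1.31 log2 for Stra6, 1.32 for Rxra and 1.04 for Stra8. The retinol-oxidizing alcohol dehydrogenase gene Adh7 rose from 7.89 and 8.35 to 9.27 and 10.26. That rise was 1.64 ± 0.31 log2 (adjusted p = 0.0143), and its samples differed by almost 1 log2 in XII-I. Dhrs4, a retinal reductase, rose by 1.11 log2 and Crabp1, a retinoic acid binding protein, by 0.63. Of 31 measured retinoid genes, 3 rose (9.68%, against 7.33% of all genes) and 4 fell (12.9%, against 4.63%), with a median of 0.093 log2. Among those that did not pass were the retinal dehydrogenases Aldh1a1 and Aldh1a2, at 0.32 and 0.29 log2, and the degrading enzymes Cyp26a1 and Cyp26b1, at -0.16 and 0.22. Of 20 measured genes of meiotic entry, Sohlh2 (0.81 log2) and Zfp541 (0.73) rose, and Figla, Ctcfl, Sox30 and Stra8 fell (10% and 20% of the list, against 7.33% and 4.63% of all genes). The median of that list was -0.090 log2. The retinoid list had 6, 2 and 1 calls without XII-I sample 1, XII-I sample 2 and IX-XI sample 1, and the meiotic entry list 4, 1 and 1. Both had 0 in limma without IX-XI sample 2, where 9 and 7 genes had an unadjusted p under 0.05.

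Spermatogonial genes passed at shares near those of all genes. Of 36 measured, 3 rose (8.33%, against 7.33% of all genes), 2 fell (5.56%, against 4.63%) and 31 did not pass, with a median of -0.075 log2. Etv5, a transcription factor of self-renewal, rose from 8.96 and 8.50 to 9.80 and 9.85, by 1.10 ± 0.24 log2 (SE, n = 2 against 2; limma, adjusted p = 0.0229). Its other probe set went the same way, by 1.29 log2. Bcl6b and Utf1, both expressed in undifferentiated spermatogonia, rose by 0.53 and 0.58 log2. Upp1 and Elavl2 fell by 0.50 and 0.64 log2, and Gfra1, Kit and Zbtb16 did not pass at -0.05, 0.23 and 0.13. Of 45 measured DNA replication genes, 2 rose (4.44%, against 7.33% of all genes) and 5 fell (11.1%, against 4.63%), with a median of -0.062 log2. Rrm2, the ribonucleotide reductase subunit, rose from 8.91 and 8.84 to 9.93 and 9.92, and Rfc1 rose by 0.70 log2. The origin recognition gene Orc1 fell by 0.90 log2, the polymerases Pole and Pold1 by 0.77 and 0.46, the ligase Lig1 by 0.57 and the clamp loader Rfc4 by 0.51. The helicase subunits Mcm2 to Mcm7 did not pass, at -0.27 to 0.29 log2. The spermatogonial list had 1 call without either XII-I sample and 0 in limma without either IX-XI sample, where 8 and 7 genes had an unadjusted p under 0.05. The replication list had 7 calls when XII-I sample 1 was left out, 1 when XII-I sample 2 or IX-XI sample 1 was, and 0 when IX-XI sample 2 was, with 12 then at an unadjusted p under 0.05.

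Of 34 measured genes of pachytene and diplotene spermatocytes, 2 rose (5.88%, against 7.33% of all genes), 6 fell (17.6%, against 4.63%) and 26 did not pass, with a median of 0.114 log2. The 2 that rose were Ccna1 and Ovol2, a zinc finger repressor gene, the latter by 0.83 log2. Calr3, a testis calreticulin chaperone, read 11.42 and 11.31 in IX-XI and 10.42 and 8.86 in XII-I, and fell by 1.73 ± 0.44 log2 (SE, n = 2 against 2; limma, adjusted p = 0.0361). The XII-I samples differed from each other by more than sample 1 did from IX-XI. The piRNA pathway genes Piwil1 and Tdrd1 fell by 1.08 and 1.24 log2, the testis linker histone H1f6 by 1.26 and Cul4b by 0.59. Their partner Tdrd6 did not pass at 0.31 log2. The list had 5, 1 and 2 calls without XII-I sample 1, XII-I sample 2 and IX-XI sample 1. It had 0 in limma without IX-XI sample 2, where 10 genes had an unadjusted p under 0.05.

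Of 52 measured genes of the acrosome and round spermatid, 8 fell (15.4%, against 4.63% of all genes), 5 rose (9.62%, against 7.33%) and 39 did not pass, with a median of -0.188 log2. Hyal5, a sperm hyaluronidase, read 12.18 and 12.50 in IX-XI and 9.63 and 10.70 in XII-I, and fell by 2.18 ± 0.44 log2 (SE, n = 2 against 2; limma, adjusted p = 0.0177). Lyzl6, a lysozyme-like protein, went from 11.26 and 11.77 to 8.91 and 10.29, Acrv1, an acrosomal vesicle protein, from 12.50 and 12.86 to 10.49 and 11.84, and Izumo1, the sperm protein of fusion with the egg, from 11.52 and 11.88 to 9.79 and 10.76. In all 4 genes XII-I sample 1 was the lowest of the 4 arrays and sample 2 lay between it and IX-XI. Spaca4, Spata46, Spaca7 and Sox30 also fell, by 1.41, 1.14, 0.63 and 0.50 log2. The 5 that rose were Zpbp2, Dpy19l2, Prss21, Catsper2 and Acrbp, by 0.37 to 0.69 log2. Relative to each gene's mean over the 12 arrays, the whole list had a median of -0.156 log2 on XII-I sample 1 and -0.203 on sample 2. There were 6 calls when XII-I sample 1 was left out, 10 when its partner was and 1 when IX-XI sample 1 was. Removing IX-XI sample 2 left 0 in limma, and 19 members had an unadjusted p under 0.05.

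Among 22 measured genes of spermatid chromatin compaction, 3 rose (13.6%, against 7.33% of all genes) and 2 fell (9.09%, against 4.63%), with a median of 0.062 log2. The germ granule gene Tdrd7 rose by 0.81 log2, Zmynd15 by 0.75 and Top2b by 0.69, and the remodeller Chd5 and H1f6 fell, Chd5 by 0.94 log2. The transition protein genes Tnp1 and Tnp2 and the protamine genes Prm1 and Prm2 did not pass, at -0.06 to 0.01 log2. Of 57 measured genes of the sperm tail, 6 rose (10.5%, against 7.33% of all genes) and 2 fell (3.51%, against 4.63%), with a median of 0.178 log2. Dnaic2, a dynein intermediate chain, read 9.96 and 9.04 in IX-XI and 11.68 and 11.60 in XII-I, and rose by 2.14 ± 0.45 log2 (SE, n = 2 against 2; limma, adjusted p = 0.0205). The IX-XI samples differed by almost 1 log2, and both lay below both XII-I samples. Dnah10, a dynein heavy chain, rose from 9.86 and 9.44 to 10.91 and 11.16, and its other 4 probe sets rose by 1.08 to 1.68 log2. Odf3 and Tekt5, of the outer dense fibres and the flagellar tektins, fell by 1.55 and 1.11 log2. Compaction genes had 7, 3 and 2 calls without XII-I sample 1, XII-I sample 2 and IX-XI sample 1, and tail genes 7, 1 and 2. With IX-XI sample 2 removed both lists had 0 in limma, with 6 and 11 at an unadjusted p under 0.05.

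**Figure D3:**
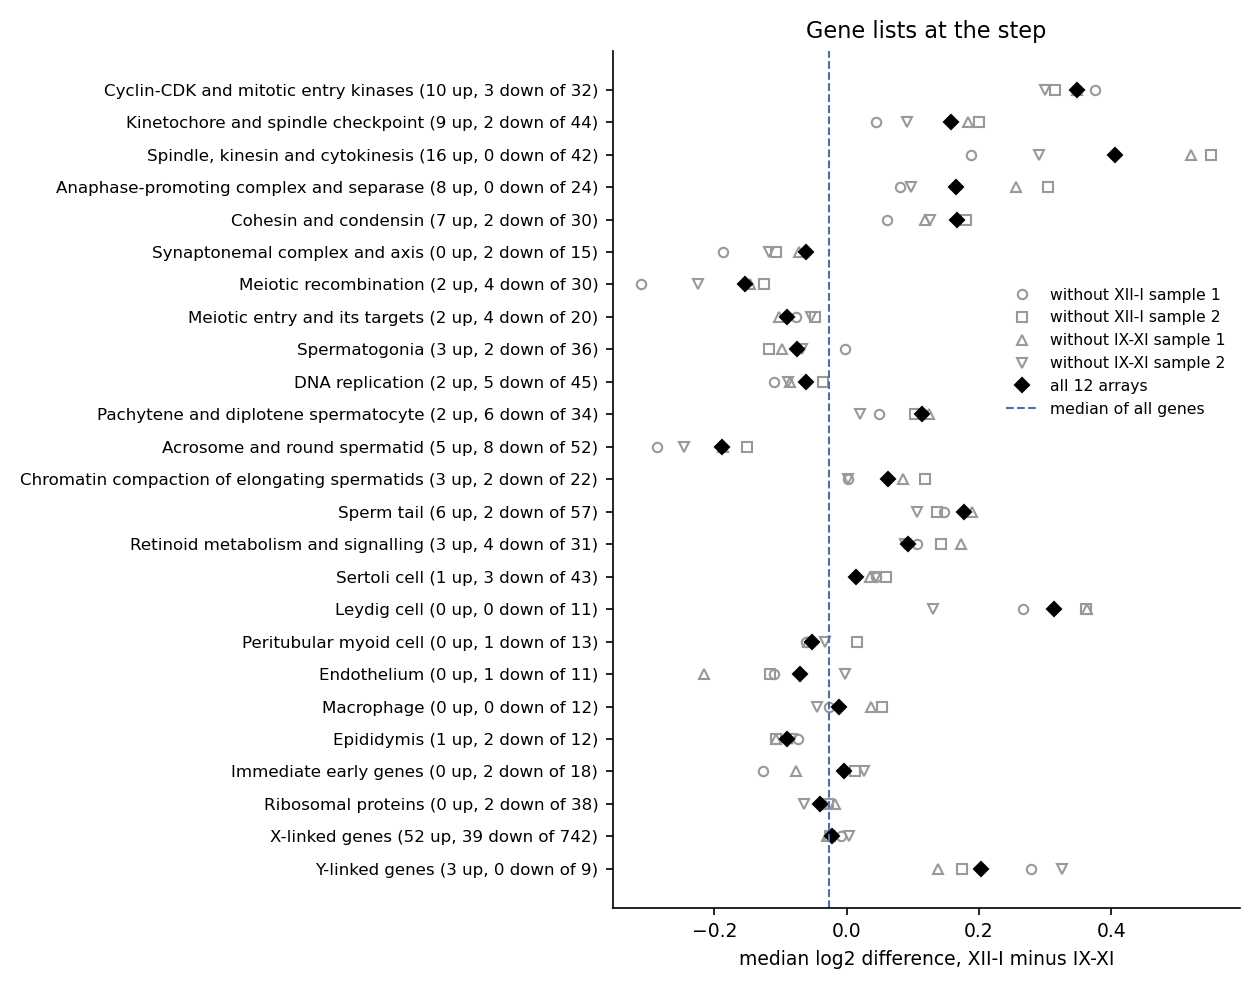
Median log2 difference, XII-I minus IX-XI, over the measured members of each gene list (black diamonds, all 12 arrays) and with each of the 4 arrays left out in turn (open grey symbols), with the numbers of members that rose and fell. The list of blood genes, with 3 measured members, is not shown. The dashed line is the median of all genes, -0.027. The spindle list is highest at 0.406 and the acrosome list lowest at -0.188 with all arrays.

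Outside predicted genes and receptor families, which were passed over, the 15 largest rises were 3.61-fold to 5.77-fold, and 2 of these genes, Cenpe and Plk1, are on the division lists. Over all genes 1 rose and 6 fell by at least 8-fold. Nutm2 read 6.55 and 6.28 in IX-XI and 8.91 and 8.97 in XII-I, a rise of 2.53 ± 0.31 log2 (SE, n = 2 against 2; limma, adjusted p = 0.0076). Cfap47, a cilia and flagella protein gene on the X chromosome, went from 7.08 and 7.55 to 9.32 and 10.06 and rose by 2.38 ± 0.25 log2. Prss46, a serine protease gene, went from 8.80 and 9.65 to 10.97 and 11.87, and Iqca from 7.72 and 8.11 to 9.54 and 10.76. In Cfap47, Prss46 and Iqca both groups read higher on sample 2. They had their highest mean in II-IV, as had Tpte, Alas2 and Ssxb2, while the other 9 peaked in XII-I: Nutm2, Dnaic2, Srsy, Ccnf, Dydc1, Cenpe, Hpcal4, Plk1 and Macir. Alas2, the haem synthesis enzyme of red cells, read 7.61 and 7.75 against 9.42 and 10.27, while the red cell genes Epb42 and Slc4a1 did not pass, at 0.02 and -0.12 log2. A further probe set of Iqca differed by only 0.14 log2, and those of Srsy and Ssxb2 may read several related copies. The fits counted next include those that left out an array of a group outside the step. Such a fit left the difference at the step unchanged, and leaving out either array of that group gave the same calls. Of the 15, Cfap47 alone was called in all 12 fits that each left out 1 array, and 9 others in 11. The remaining calls held in 9 or 10 of the 12.

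The 15 largest falls, with the same genes passed over, were 6.31-fold to 13.1-fold. Cd109, a membrane-anchored protease inhibitor, read 10.81 and 11.01 in IX-XI and 7.60 and 6.80 in XII-I, so that it fell by 3.71 ± 0.59 log2 (SE, n = 2 against 2; limma, adjusted p = 0.0092). Dyrk4, a testis kinase, went from 11.66 and 11.74 to 8.88 and 7.88, and Cd46, a complement regulator of the sperm head, from 9.95 and 9.84 to 7.05 and 6.54. Both XII-I samples lay over 2 log2 below both IX-XI samples in these 3 genes, and XII-I sample 2 was the lower. Lrrd1 (-3.41 log2), the amino acid transporter gene Slc36a3 (-3.26), the purinergic receptor gene P2rx3 (-2.96), Samt3 (-2.95), Tmco5b (-2.93) and Tmem144 (-2.73) also had their highest mean in IX-XI. Mgat4f (-2.85) and Spata31d1c (-2.72) were highest in VIII-IX, and Spata31d1d (-2.86), the heat shock factor gene Hsfy2 (-2.86), Mroh5 (-2.73) and Cldn34c4 (-2.66) in VII. Mgat4f read 11.43 and 11.30 against 9.42 and 7.61, and Spata31d1c 12.28 and 12.10 against 10.70 and 8.25. In both genes the XII-I samples were further apart than the IX-XI samples. Hsfy2 went from 11.59 and 11.90 to 8.42 and 9.35, and here XII-I sample 1 was the lower. The 8 probe sets of Mroh5 differed by -2.91 to -2.39 log2. A further set of P2rx3 differed by -0.92 log2, and those of Samt3, Cldn34c4 and the Spata31d1 genes may read several copies. Here too the leave-outs include arrays outside the step, whose removal left the difference unchanged. Limma called 0 of the 15 without IX-XI sample 2; Cd109, Slc36a3, Cd46 and Tmem144 were called in each of the other 11 leave-outs, and Spata31d1c in 5.

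**Figure D4:**
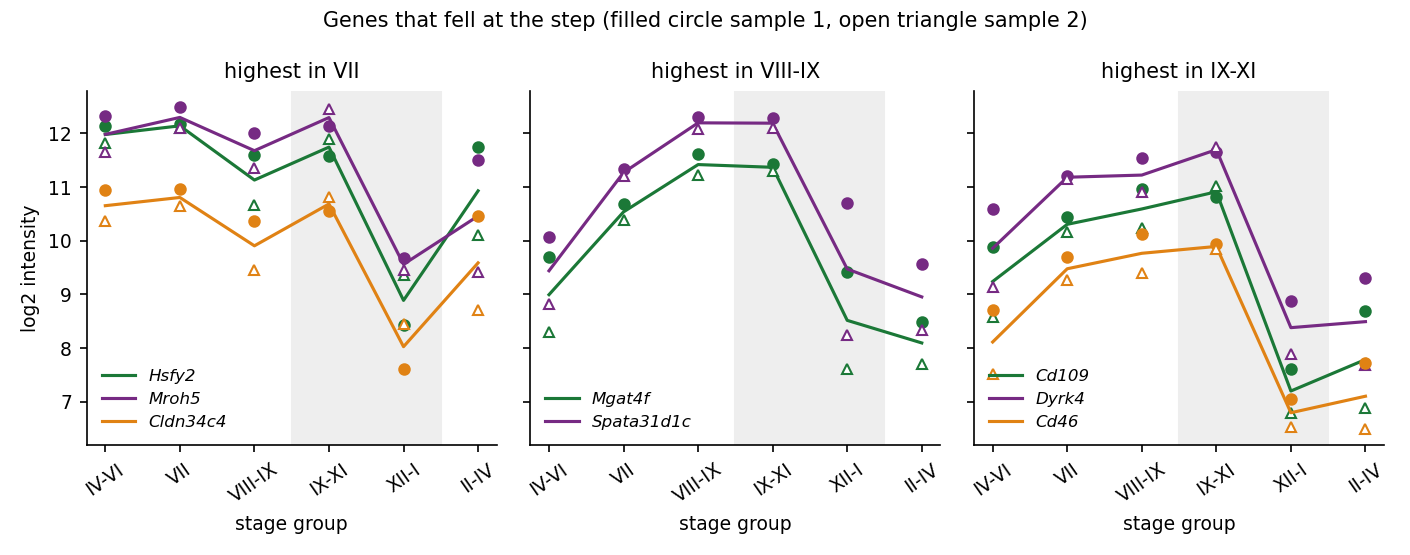
log2 intensity of 8 genes that fell at the step on all 12 arrays, with stage groups in the order of the cycle, filled circles for sample 1, open triangles for sample 2, lines through the group means and the step shaded; panels are split by the group with the highest mean. Hsfy2, Mroh5 and Cldn34c4 have their lowest mean in XII-I and a higher one in II-IV, which for Mroh5 is higher on sample 1 alone, while Mgat4f and Spata31d1c are lowest in II-IV.

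The genes of the step peaked in different groups, and the XII-I samples differed with the peak. Of the 1462 genes that rose, 1103 (75.4%) had their highest mean in XII-I, 321 (22.0%) in II-IV, 34 in IV-VI and 4 in VII. The lowest mean was in IX-XI for 648 (44.3%), in VII for 527 (36.0%) and in VIII-IX for 259. Of the 924 that fell, 561 (60.7%) were highest in IX-XI, 188 (20.3%) in VIII-IX, 129 (14.0%) in VII and 46 in IV-VI. Their lowest mean was in XII-I for 532 (57.6%), in II-IV for 270 (29.2%) and in IV-VI for 115. Over all genes 22.6% were highest in XII-I and 27.3% in IX-XI, and the test itself favours genes high or low in these groups. Among rising genes with their peak in XII-I, 67.7% read higher on XII-I sample 1. Among those with their peak in II-IV, 90.0% read higher on XII-I sample 2, by a median of 0.231 log2. Of the falling genes with their peak in VIII-IX, 86.7% read higher on sample 1, by a median of 0.308 log2. In both of the latter sets XII-I sample 1 lay nearer to IX-XI and sample 2 nearer to II-IV. In the 1103 genes with their peak in XII-I it was sample 1 that lay further from IX-XI, with a median of 0.418 log2 relative to each gene's mean, against 0.358 on sample 2. The 129 falling genes with their peak in VII showed no such lean, with 51.2% higher on sample 1.

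The groups on either side, VIII-IX and II-IV, share no array with the step and were compared for the same genes. Both comparisons came from the same fit with the same variance estimate for each gene. A gene with a small spread was therefore favoured in both, and their calls are not independent. In II-IV against VIII-IX, limma called 1381 genes higher (6.92%) and 1238 lower (6.21%). Of the 1462 genes that rose at the step, 554 were higher there too (37.9% of them and 40.1% of the 1381) and 0 were lower. Of the 924 that fell, 446 were lower there (48.3%, and 36.0% of the 1238) and 0 were higher. The difference had the sign of the step in 92.6% of the genes that rose and 95.5% of those that fell, against 55.6% of all genes above 0 and 44.4% below. The medians were 0.333 and -0.547 log2, against 0.025 over all genes. Of the 50 division genes that rose, 19 were higher in II-IV than in VIII-IX, 0 were lower, and 46 lay above 0. The 4 below 0 were Cdk1 (-0.27 log2), Ska3 (-0.26), Hmmr (-0.05) and Tpx2 (-0.02), and none of these passed. Hsfy2 and Cldn34c4, which fell by over 2.5 log2 at the step, differed by only -0.20 and -0.32. The 2619 calls of this comparison depended on single arrays: 209 were left without VIII-IX sample 1, 1132 without its partner and 1012 without II-IV sample 1. With sample 2 of both VIII-IX and IX-XI left out there were 317.

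**Figure D5:**
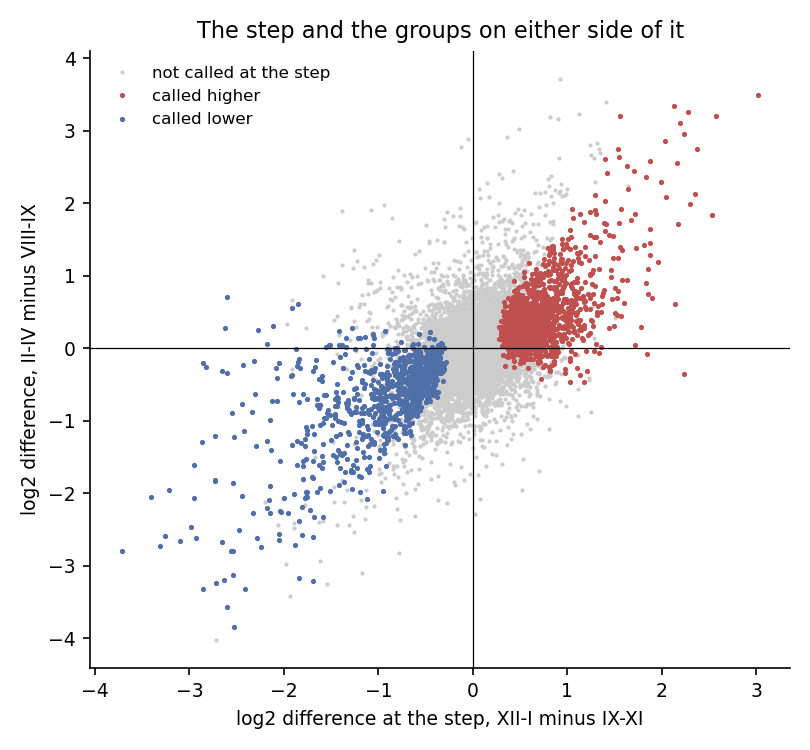
For each gene, the log2 difference at the step (XII-I minus IX-XI, horizontal) against that of the groups on either side (II-IV minus VIII-IX, vertical), which share no array; red genes rose, blue genes fell and grey genes did not pass at the step. Of the red genes 92.6% lie above 0 on the vertical axis and of the blue genes 95.5% below it.

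A smaller number of calls did not rest on any of the 4 arrays. With all arrays and without XII-I sample 1, XII-I sample 2 and IX-XI sample 1 in turn, 304 genes were called each time, 220 that rose and 84 that fell. Adding the fit without IX-XI sample 2 left 11. Besides Cfap47 and 4 predicted genes these were Rbmx, an RNA binding protein gene (0.88 log2), which rose, and Cd55, Smok2b, Dcdc2c, Acer2 and Fam89a, which fell; these 6 were named after their values were seen. Cd55, a complement regulator like Cd46, read 9.99 and 9.92 in IX-XI and 8.37 and 8.13 in XII-I, and fell by 1.71 log2. Smok2b, a sperm motility kinase gene with close relatives that its probes may read too, read 9.63 and 9.35 against 7.61 and 7.30, and fell by 2.04 log2. The ceramidase gene Acer2 read 9.41 and 9.42 against 8.33 and 7.97. In each of these the samples of a group lay close together and the groups apart, which choosing genes called in every such fit favours.

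The X and Y chromosomes are silenced in pachytene spermatocytes and partly restored after division. Of 742 measured X-linked genes, 52 rose (7.01%, against 7.33% of all genes) and 39 fell (5.26%, against 4.63%), with a median of -0.022 log2, so the shares were near those of all genes. Besides Cfap47 and Alas2, the X-linked genes that rose most included Ssxb2, Ssxb3, Ssxb5 and Ssxb10, by 1.57 to 1.88 log2, whose probe sets may read each other's transcripts; the last 3 were named after their values were seen. Of 9 measured Y-linked genes, 3 rose (33.3%, against 7.33% of all genes) and 0 fell, with a median of 0.203 log2. Srsy, of a multicopy family, went from 10.08 and 10.60 to 12.17 and 12.59, Usp9y from 7.66 and 7.64 to 8.50 and 8.26, and Uty from 8.11 and 8.03 to 8.61 and 8.52. The X-linked calls numbered 60, 25, 6 and 2 without XII-I sample 1, XII-I sample 2, IX-XI sample 1 and IX-XI sample 2, and the Y-linked calls 1, 2, 1 and 0 in limma, with 3 at an unadjusted p under 0.05 in the last.

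Genes of the somatic cells were given as a check on what else differed between the arrays. Of 43 measured Sertoli cell genes, Espn, an actin bundling protein gene, rose by 1.04 log2 (2.33%, against 7.33% of all genes). Cldn13, Drd4 and Defb45 fell by 1.21, 1.05 and 0.46 log2 (6.98%, against 4.63%). The rest did not pass, and the median was 0.015 log2. The 11 Leydig cell genes had 0 calls in limma, 2 at an unadjusted p under 0.05 and a median of 0.313 log2. Their place differed by array: relative to each gene's mean over the 12 arrays, the list's median stood at -0.372 log2 on IX-XI sample 2 and -0.048 on IX-XI sample 1, against 0.147 and 0.020 on the XII-I samples. Cyp17a1, a steroid synthesis enzyme, read 12.46 and 11.90 in IX-XI and 12.59 and 12.60 in XII-I. Thus the array on which most calls rested was also the lowest for Leydig cell genes, and the part of this in the results was not tested. Without it the Leydig median was 0.131 log2. Peritubular myoid (13 genes), endothelial (11) and macrophage (12) lists had 1, 1 and 0 members that fell (Lum, Tie1) and 0 that rose. The shares that fell were 7.69%, 9.09% and 0%, against 4.63% of all genes. Of the macrophage genes 2 had an unadjusted p under 0.05. Of 12 epididymal genes Rnase10 rose by 1.35 log2 (8.33%, against 7.33% of all genes) and Defb30 and Wfdc9 fell by 0.98 and 0.99 (16.7%, against 4.63%). Of 18 immediate early genes, which respond to handling of tissue, Dusp1 and Egr3 fell by 1.20 and 1.03 log2 (11.1%, against 4.63% of all genes). In that list 0 rose, and Fos and Jun did not pass at 0.25 and 0.18 log2. Of 38 ribosomal protein genes Rpl5 and Rpl7 fell by 0.34 and 0.40 log2 (5.26%, against 4.63% of all genes), 0 rose, and the median was -0.04.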

How the data were processed

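The data were 1 table in which the authors deposited an intensity for each probe set on a linear scale. RMA (robust multi-array average: background correction, quantile normalization and summary of probes) is the tool that the submitters' processing notes name, without a version. RMA makes the distributions of the arrays alike, so all differences are relative to the other transcripts and a change in total RNA cannot be seen. Intensities ran from 24.97 to 21760, array medians from 296.9 to 309.1, and values were taken to log2. Of 28853 probe sets, 21797 had 1 symbol in the array annotation, 1613 several and 5443 none listed. The set with the highest mean over 12 arrays stood for each of 19946 genes, and 999 genes had more than 1 set. RefSeq (GRCm38.p6) gave chromosomes and promoters, 1 window per gene, the first listed.

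limma 3.58.1 (lmFit, eBayes) in R 4.3.3 fitted 6 group means to the 12 arrays, with 6 residual degrees of freedom. It was tested on simulated data. Standard errors use the moderated variance of limma, which draws on the spread within all 6 groups. They are therefore not the spread of the 2 against 2 samples beside which they are printed. The number of arrays, and which of them enter a fit, limit the precision. Genes named by rule number 149. They are the 15 largest rises and 15 largest falls with groups not overlapping, passing over predicted genes and receptor families, and up to 8 passing members per list and direction. Further list members, whether they passed or not, and partners of named genes are given as values only. These are not among the 149. Members, lists and comparisons were chosen with earlier results of these data known. Of 728 list entries, 51 had no measured gene. Alternatives were the 4 arrays alone, a replicate block, another quantile normalization, median centring, a filter on dim genes, the mean of probe sets, array weights, a variance trend and each array left out. Leaving out IX-XI sample 2 and VIII-IX sample 2 together, and most settings of the VIII-IX and II-IV comparison, were added after the data were seen.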

Additional observations from a re-analysis of the deposited data

How the results depend on the processing

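Among the settings that kept all 12 arrays, genes called at the step numbered 2308 (arrays centred on their medians) to 2801 (sample number as a replicate block). The block was no clear pairing: deviations of same-numbered samples correlated at 0.526, but the numbers form only 2 pairs here and the labels do not tie them, so they were not taken to pair the samples. Fitted to the 4 arrays alone, limma called 1428 genes, 742 higher and 686 lower, with 2 residual degrees of freedom. With each array left out in turn, calls ranged from 11 to 2771, genes higher from 5 to 1586 and genes lower from 6 to 1185. With IX-XI sample 2 and VIII-IX sample 2 both left out, limma called 0 in either direction, and 3291 genes had an unadjusted p under 0.05. In the comparison of VIII-IX with II-IV, calls ranged from 209 to 3038 over the leave-outs, and were 1106 with array quality weights and 317 without that pair, against 2619. None of the 149 named genes turned its direction in these settings, but choosing genes whose groups do not overlap fixes that for the leave-outs. Of the 149, 1 was called without IX-XI sample 2, 37 without IX-XI sample 1, 59 without XII-I sample 2 and 94 with the 4 arrays alone. The cause was not tested. The number of arrays limits what can be told.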
